A study of Mus musculus with 9 samples.

Results

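The genes described here encode proteins of the junctions that hold endothelial cells together. They are Cdh5 and Ctnnb1 of adherens junctions, Cldn5, Ocln and Tjp1 of tight junctions, and F11r, Jam2, Jam3 and Esam of the junctional adhesion molecule family. They were chosen by name, and all 9 were found among 21887 protein-coding genes of mouse build GRCm38.p6. The chromatin was that of lung endothelial cells isolated from wild-type (WT) mice, with no treatment and no age in the labels. It was profiled by ACT-seq, in which an antibody brings a transposase to chromatin that carries a mark and the enzyme tags the DNA there, for H3K4me3 and the acetylations H2AK5ac, H3K9ac, H3K14ac, H3K18ac, H3K23ac, H3K27ac and H4K8ac, with IgG as the control antibody. Each target is represented by 1 library. No value below has a replicate error, and marks or genes were not tested against each other.

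Endothelial cells line blood vessels, and their junctions decide what passes between blood and tissue. In adherens junctions VE-cadherin of one cell binds VE-cadherin of its neighbour, and catenins tie it to actin inside the cell. In tight junctions claudins and occludin seal the gap between cells, and scaffold proteins anchor them. Junctional adhesion molecules and ESAM are immunoglobulin-type receptors that bind across the contact and take part in leukocyte passage. H3K4me3 marks active promoters, and histone acetylation is found at active promoters and enhancers.

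The deposited table joins 8 peak lists, and a name such as H3K27ac-rich list gives the library whose reads were densest in it. The name is measured from the counts and does not say on which library the peaks were called. Library totals ran from 365999 reads for IgG to 10044130 for H3K14ac, and the lists from 48943 peaks (H3K9ac-rich) to 578465 (H3K14ac-rich). The marker genes of endothelium (Pecam1, Kdr, Tie1, Tek, Erg, Emcn, Eng and Egfl7) had peaks of all 8 lists at 8 of 8 genes. All 8 lists were present at 2 of 8 markers of lung epithelium (Sftpc and Cdh1), 1 of 8 of leukocytes (Csf1r) and 1 of 8 of mesenchyme (Pdgfrb). The share of all coding genes was 44.6%. Spans ran from 11600 to 227432 bp among the endothelial markers and from 3141 to 66898 bp among the epithelial ones. Those of leukocyte markers ran from 1958 to 112898 bp and of mesenchymal ones from 6431 to 46885 bp. Longer genes hold peaks more often, and the part of gene length in these counts was not tested. Markers of these other cells were not free of peaks: the fewest lists were 1 at Nkx2-1, 2 at Cd3e and 2 at Lum. What other cells contributed to the peaks of the junction genes was not tested.

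For 5 of the 9 genes a RefSeq promoter was at hand, and 1 for each of the 5 is shown. The 300 bases run 5′ to 3′ from 250 bases before the start site to 50 bases from it on, in build GRCm38.p6. Those of Ctnnb1 (chr9:120933150-120933449, plus strand) and Tjp1 (chr7:65371195-65371494, minus strand) were covered by peaks of 7 lists. That of F11r (chr1:171437311-171437610, plus strand) was covered by 5 lists, that of Ocln (chr13:100552669-100552968, minus strand) by 1 list and that of Cldn5 (chr16:18776597-18776896, plus strand) by none. Capitals mark motif letters found by a search of both strands, explained after the sequences; a motif on the other strand appears as its reverse complement.
Ctnnb1: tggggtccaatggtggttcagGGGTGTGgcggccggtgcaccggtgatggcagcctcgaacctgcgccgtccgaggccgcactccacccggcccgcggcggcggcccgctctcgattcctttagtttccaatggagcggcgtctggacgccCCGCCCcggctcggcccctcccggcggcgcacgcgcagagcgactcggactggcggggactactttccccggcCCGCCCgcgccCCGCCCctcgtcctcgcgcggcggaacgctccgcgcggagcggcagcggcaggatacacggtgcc
Tjp1: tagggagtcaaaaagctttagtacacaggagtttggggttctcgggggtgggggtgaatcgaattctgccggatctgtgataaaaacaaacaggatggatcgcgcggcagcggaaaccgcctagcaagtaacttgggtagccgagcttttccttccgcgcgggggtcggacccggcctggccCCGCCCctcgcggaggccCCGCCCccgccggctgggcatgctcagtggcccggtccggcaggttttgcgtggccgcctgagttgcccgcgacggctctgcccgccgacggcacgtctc
F11r: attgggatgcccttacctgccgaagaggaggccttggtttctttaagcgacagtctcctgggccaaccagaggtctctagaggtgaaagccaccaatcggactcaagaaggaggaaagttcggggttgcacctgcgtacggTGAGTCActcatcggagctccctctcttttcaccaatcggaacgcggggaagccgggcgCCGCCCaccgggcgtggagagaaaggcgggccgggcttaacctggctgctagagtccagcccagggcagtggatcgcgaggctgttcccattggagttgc
Ocln: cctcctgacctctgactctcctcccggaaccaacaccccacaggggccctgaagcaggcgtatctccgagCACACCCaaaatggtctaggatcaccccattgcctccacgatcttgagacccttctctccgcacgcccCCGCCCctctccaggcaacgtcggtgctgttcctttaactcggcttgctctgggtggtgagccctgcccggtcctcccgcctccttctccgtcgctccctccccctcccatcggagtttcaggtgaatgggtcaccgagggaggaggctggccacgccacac
Cldn5: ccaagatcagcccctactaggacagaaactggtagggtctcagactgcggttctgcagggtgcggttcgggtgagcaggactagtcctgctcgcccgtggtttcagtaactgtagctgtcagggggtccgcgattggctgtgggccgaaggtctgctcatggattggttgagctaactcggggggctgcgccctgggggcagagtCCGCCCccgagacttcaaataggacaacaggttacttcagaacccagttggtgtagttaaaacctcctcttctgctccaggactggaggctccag

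H3K4me3-rich peaks touched a promoter in 4 of these 5 genes, against 54.5% of the 17492 coding genes with a RefSeq promoter. No gene of the 5 had all 8 lists over a promoter (15.6% of those coding genes), and Cldn5 alone had no list (33.8% of those coding genes). With 5 genes these shares say little on their own, and the bases covered are plainer. On the Ctnnb1 promoter shown, H3K23ac-rich peaks covered 300 bp, H3K9ac-rich 278 bp, H3K27ac-rich 247 bp, H3K18ac-rich 232 bp, H3K14ac-rich 219 bp, H4K8ac-rich 217 bp and H3K4me3-rich 115 bp. On the Tjp1 promoter H3K9ac-rich and H3K23ac-rich peaks covered 300 bp each, H3K27ac-rich 220 bp and H3K4me3-rich 208 bp. At F11r the H3K4me3-rich list covered 219 bp and the H3K27ac-rich list 168 bp, with none of the H3K23ac-rich and H4K8ac-rich lists. On the Ocln promoter the H3K4me3-rich list was the only one, with 182 bp. H2AK5ac-rich peaks covered no base of any of the 7 promoters of these 5 genes. Such a peak lay over a promoter in only 20.4% of the 17492 coding genes, so its absence at 5 genes says little.

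The promoters also differed in base composition, and the order was not that of the peaks. The G and C share was 75.3% at Ctnnb1, 65.3% at Tjp1, 64.0% at Ocln, 60.3% at F11r and 58.3% at Cldn5, against a median of 56.3% over 21263 promoters of coding genes. CpG counts were 46, 31, 17, 19 and 12 in that order, against a median of 13. The letters GGGCGG, the core of SP-type sites, were found in all 7 promoters, the peak-free one of Cldn5 included, and in 46.2% of all promoters. The letters GGGTGTG of KLF-type sites lay in the Ctnnb1 and Ocln promoters shown (8.02% of all promoters), TGANTCA of AP-1 in that of F11r (6.99%), and TATAAA in the promoter of the second Ctnnb1 start site (12.6%). No match was found in the 7 promoters for GGAAGT (ETS, 24.8% of all promoters), AGATAA (for GATA factors, 9.65%), TGTTTAC (FOX, 3.01%), ACAATG (SOX, 11%), another SOX form, ACAAAG (16.8%), GGAATG (TEAD, 13.6%) or CTTTGA (TCF, 14.4%). Matched motifs did not overlap each other in the promoters shown. A match is a run of letters and not a binding site.

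Over the whole genes, peaks of most lists were present at 8 of the 9 genes and absent at Cldn5. Counted were peaks with at least 1 base in the gene span or in 2 kb either side of it, 776 in all. At least 1 peak was present at 8 of 9 genes for the H3K4me3-rich list (69.6% of all coding genes), the H3K14ac-rich (89.8%), the H3K18ac-rich (77.3%), the H3K23ac-rich (69.7%), the H3K27ac-rich (71.6%), the H4K8ac-rich (75.4%) and the H2AK5ac-rich list (55.2%). For the H3K9ac-rich list it was 7 of 9 (59.2%), since Ocln had none. All 8 lists were present at 7 of 9 genes, against 44.6% of all coding genes. Longer genes hold peaks more often: of genes with 0.5 to 2 times the span, 74.1% had all 8 lists for Tjp1, 57.2% for Cdh5 and 40.2% for Esam, the lowest of the 7. Presence in all 8 lists is therefore common for genes of these lengths.

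Covered length showed larger contrasts. The median of the 9 genes was 48.0 bp per kb of window in H3K27ac-rich peaks, against 18.6 over all coding genes, and 59.9 bp per kb in H4K8ac-rich peaks, against 21.5. In H2AK5ac-rich peaks it was 16.9 bp per kb, against 2.45. The H3K4me3-rich list gave 32.4 against 17.3 bp per kb, the H3K9ac-rich 16.7 against 7.15, the H3K14ac-rich 72.5 against 38.7, the H3K18ac-rich 42.6 against 20.2 and the H3K23ac-rich 30.2 against 14.1. All 8 medians of the junction genes lay above those of all genes, but the genes ranged from 0 to 154 bp per kb in the H3K4me3-rich list, so the median describes few of them. Cdh5, Esam, F11r and Ctnnb1 were the densely covered ones, and Jam2 and Ocln had the lowest cover after Cldn5 in 5 of the 8 lists.

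**Figure D1:**
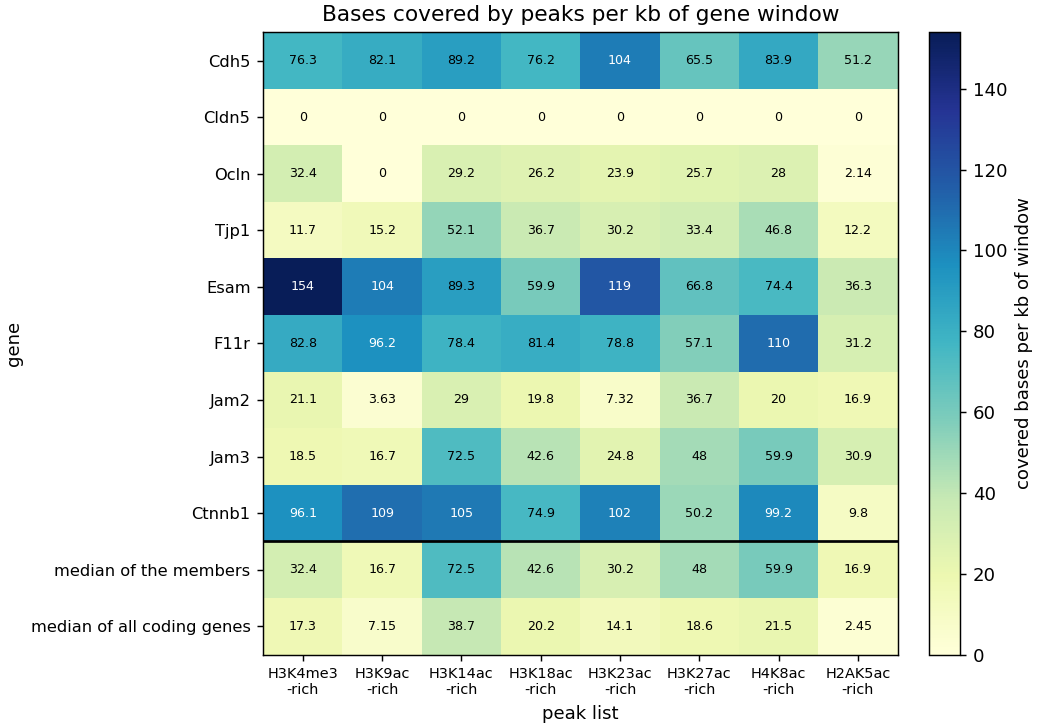
Bases covered by peaks per kb of gene window (gene span plus 2 kb either side) for each junction gene (upper rows) and each of the 8 peak lists (columns), with the median of the 9 genes and, in the lowest row, of all coding genes. Esam had the highest single value, 154 bp per kb in H3K4me3-rich peaks, and Cldn5 was at 0 in all lists.

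Among the adherens junction genes, Cdh5 and Ctnnb1 were both densely covered but differed in where and by which lists. Cdh5 (gene ID 12562, chr8:104101613-104144504) encodes VE-cadherin, the adhesion receptor specific to endothelium. Its window of 46892 bp held 113 peaks. H3K23ac-rich peaks covered 4893 bp, H3K14ac-rich 4183 bp, H4K8ac-rich 3933 bp, H3K9ac-rich 3849 bp, H3K4me3-rich 3576 bp, H3K18ac-rich 3574 bp, H3K27ac-rich 3073 bp and H2AK5ac-rich 2403 bp. Per kb of window the H2AK5ac-rich cover of 51.2 bp was higher than in 97.4% of all coding genes, and the H3K27ac-rich cover of 65.5 bp higher than in 88.0%. Among genes with 0.5 to 2 times its span, Cdh5 lay at percentile 96.1 (H3K14ac-rich and H3K27ac-rich) to 98.7 (H2AK5ac-rich) in the 8 lists.

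Where peaks that share bases are joined, Cdh5 had 34 sites, and 3 of them held peaks of all 8 lists. The first, at chr8:104101376-104102292, lay over the gene end with the lower coordinate. The second, at 104110606-104111140, began 8993 bp inside that end, and the third, at 104121287-104122350, began 19674 bp inside it. The third was the longest of the 3 at 1064 bp and held the widest H3K27ac-rich peak of the gene (590 bp), its widest H3K18ac-rich peak (629 bp) and its widest H4K8ac-rich peak (636 bp). A site of 965 bp at 104115890-104116854 and one of 489 bp at 104107099-104107587 held every list but the H3K4me3-rich one. The upper-coordinate end held a site of 7 lists (104144492-104144914), without the H2AK5ac-rich list. The nearest other coding gene, Bean1, lay 25465 bp from that site.

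Ctnnb1 (gene ID 12387, chr9:120933400-120960507) encodes beta-catenin, which binds the tails of cadherins and also acts in Wnt signalling. Its window held 79 peaks. H3K9ac-rich peaks covered 3381 bp, H3K14ac-rich 3252 bp, H3K23ac-rich 3162 bp, H4K8ac-rich 3087 bp, H3K4me3-rich 2988 bp, H3K18ac-rich 2330 bp, H3K27ac-rich 1561 bp and H2AK5ac-rich 305 bp. Its single H2AK5ac-rich peak contrasts with the 13 of Cdh5. The only Ctnnb1 site of all 8 lists was the longest of the 9 such sites in the junction genes, 1611 bp at chr9:120933073-120934683, over both RefSeq start sites. It held the widest H3K4me3-rich peak (1349 bp), H3K9ac-rich peak (1479 bp) and H3K23ac-rich peak (1077 bp) of all 9 genes, while the wider of its 2 H3K27ac-rich peaks had 389 bp. A site of 7 lists followed 2827 bp from the nearer start site, at 120936405-120936730.

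**Figure D2:**
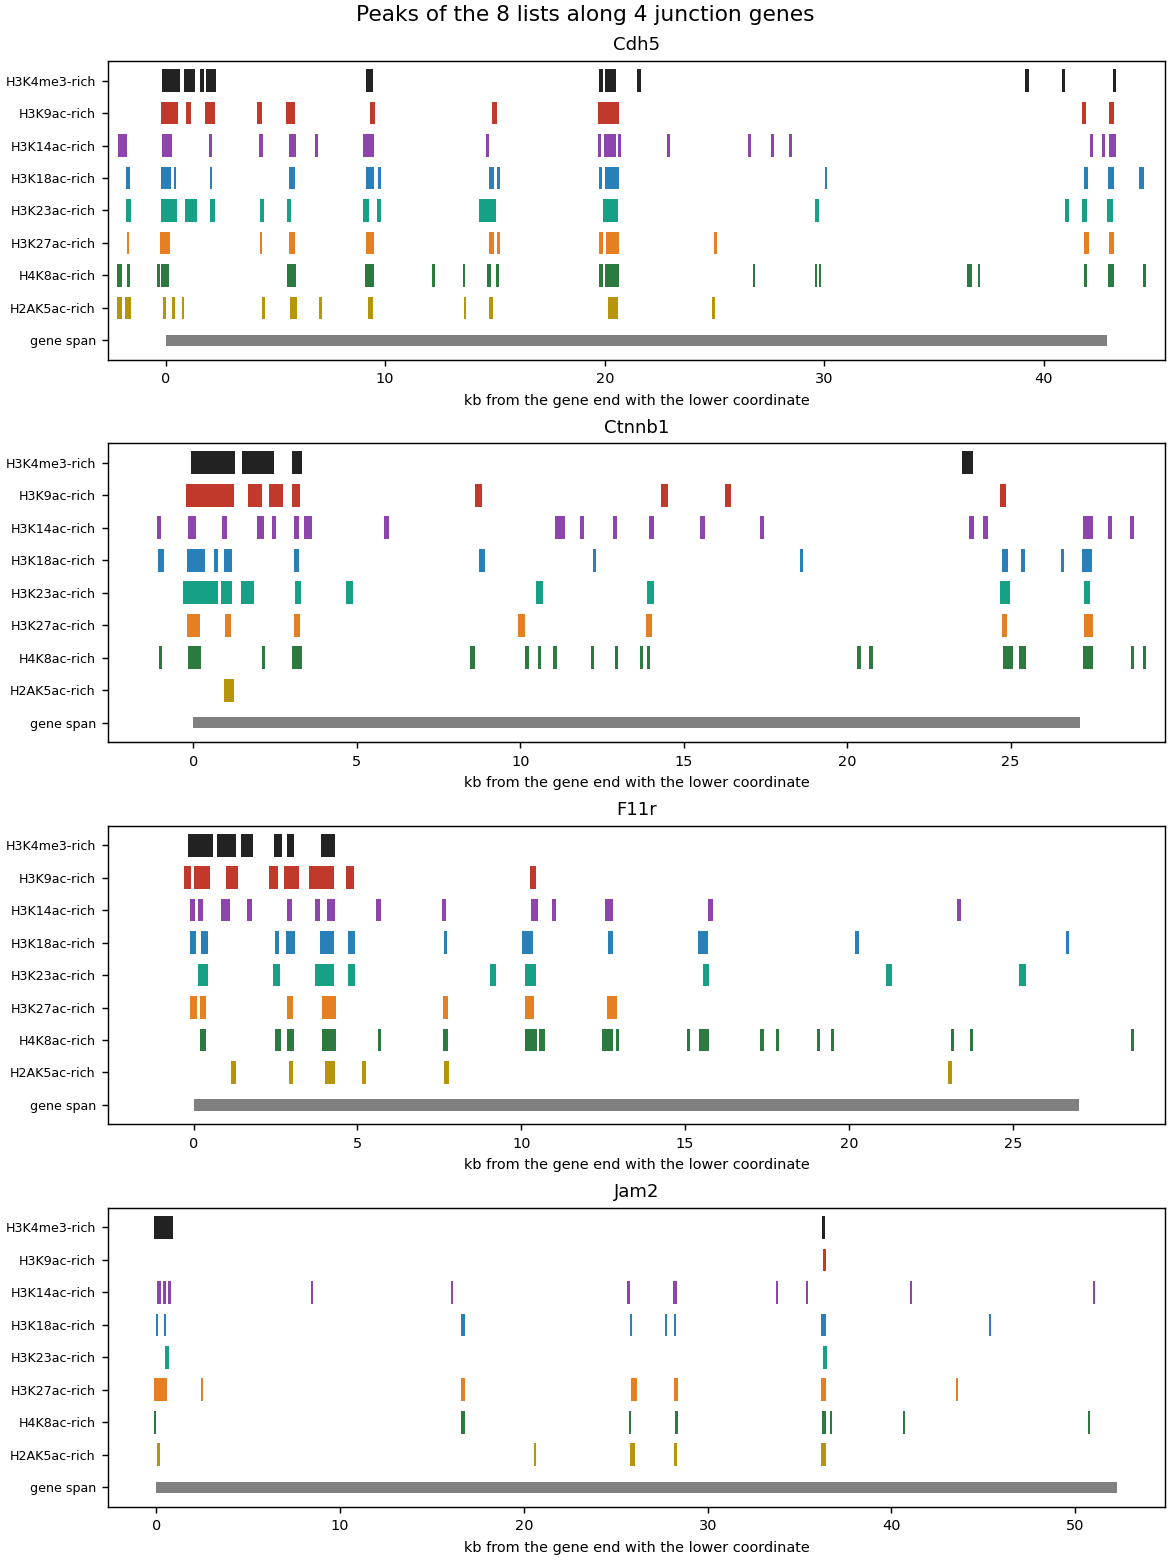
Peaks of the 8 lists along Cdh5, Ctnnb1, F11r and Jam2, as distance in kb from the gene end with the lower coordinate; each coloured bar is 1 peak and the grey bar is the gene span. Cdh5 had 3 sites of all 8 lists and Ctnnb1 and F11r 1 each, while Jam2 had none and a single H3K9ac-rich peak.

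The tight junction genes had 3 different patterns. Cldn5 (gene ID 12741, chr16:18776847-18778262) encodes claudin-5, the main claudin of endothelial tight junctions. Its window of 5416 bp held no peak of any of the 8 lists. The gene lay in a stretch of 27924 bp without a peak, chr16:18757699-18785622. Of 819219 peak-free stretches on the chromosomes, 0.631% were at least as long, which held 11.4% of the peak-free bases, and the median was 1480 bp. Within 50 kb below and 40 kb above the lower gene end there were 71 peaks, 37 below the gene and 34 above it. The nearest below were H4K8ac-rich at 19149 bp, H3K18ac-rich at 19328 bp, H3K27ac-rich at 19343 bp and H3K14ac-rich at 19386 bp. The nearest above was H3K23ac-rich at 7361 bp. Those of the other 7 lists lay 10316 to 12525 bp above.

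A gene without any peak was not rare for its length. All 8 lists were absent at 7.14% of coding genes, and at 32.5% of the 2930 genes of 0.5 to 2 times the span of Cldn5. Among the 1739 of these that were not olfactory or vomeronasal receptors the share was 19.0%. The 2 lists that reached most coding genes, H3K14ac-rich and H3K18ac-rich, were at 0 like the rest. The table holds counts for listed regions only, so reads at Cldn5 were not analysed here and an absent peak is no measure of them. Why no region was listed there was not tested.

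Ocln (gene ID 18260, chr13:100496504-100552718) encodes occludin, a membrane protein of tight junctions. It had 52 peaks of 7 lists, and the nearest H3K9ac-rich peaks lay 35097 bp below and 41332 bp above the gene. H3K4me3-rich peaks covered 1950 bp, H3K14ac-rich 1759 bp, H4K8ac-rich 1685 bp, H3K18ac-rich 1580 bp, H3K27ac-rich 1550 bp, H3K23ac-rich 1442 bp and H2AK5ac-rich 129 bp. RefSeq gives 2 start sites. The one at 100552718 lay in an H3K4me3-rich peak of 255 bp that touched no other list. The one at 100552498, inside the gene, lay in an H3K4me3-rich peak of 1029 bp at 100551476-100552504, the widest of the gene, which an H3K23ac-rich and an H4K8ac-rich peak also touched. The site with the most lists held 6, at 100535927-100536499, and lay 15999 bp from the nearer start site. It held the widest H3K18ac-rich (559 bp), H3K27ac-rich (460 bp) and H4K8ac-rich (467 bp) peaks of Ocln. No H3K27ac-rich peak lay at either start site, and the nearest one above the gene was 18139 bp away.

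Tjp1 (gene ID 21872, chr7:65296165-65527850) encodes ZO-1, the scaffold that joins tight junction proteins to actin. It is the longest of the 9 genes and held 279 of the 776 peaks. Its cover per kb was middling, at percentile 44.0 (H3K4me3-rich) to 75.5 (H2AK5ac-rich) of all coding genes. Among genes of like span (the range used for Cdh5) its percentiles were higher in every list but the H3K14ac-rich one (61.9). They were 92.4 (H4K8ac-rich), 89.4 (H3K18ac-rich and H3K23ac-rich), 88.4 (H3K27ac-rich), 85.6 (H2AK5ac-rich), 84.4 (H3K9ac-rich) and 68.5 (H3K4me3-rich). H3K14ac-rich peaks covered 12274 bp (52.1 bp per kb), H4K8ac-rich 11029 bp (46.8), H3K18ac-rich 8648 bp (36.7), H3K27ac-rich 7866 bp (33.4), H3K23ac-rich 7115 bp (30.2), H3K9ac-rich 3582 bp (15.2), H2AK5ac-rich 2880 bp (12.2) and H3K4me3-rich 2749 bp (11.7). The RefSeq start site lies inside the annotated span, and a site of all 8 lists (65370278-65371680, 1403 bp) covered it. The second site of all 8 lists, at 65469628-65470830, lay 98384 bp from that start site and 57020 bp inside the upper-coordinate end. A further 6 sites held 7 lists, and 4 of these 6 lacked the H3K4me3-rich list. The 2 kb either side of the annotated gene ends held peaks of the H4K8ac-rich list alone, so a window at the ends alone would miss most peaks of Tjp1.

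**Figure D3:**
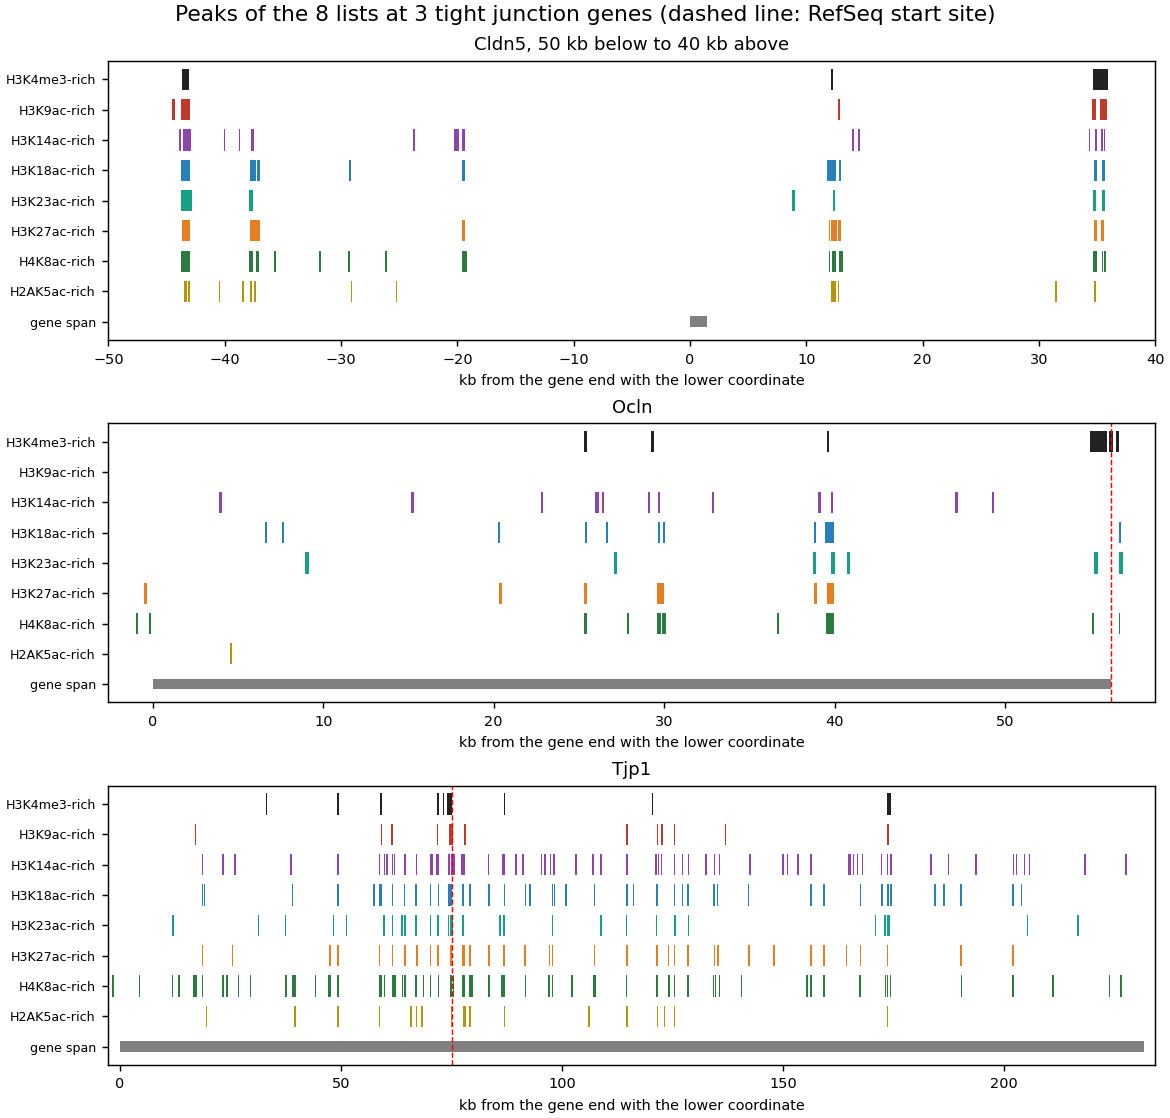
Peaks of the 8 lists around Cldn5 and along Ocln and Tjp1, as distance in kb from the gene end with the lower coordinate; each coloured bar is 1 peak, grey bars are gene spans and the dashed lines mark a RefSeq start site. Cldn5 lies in a peak-free stretch of 27.9 kb, Ocln has no H3K9ac-rich peak, and the start site of Tjp1 lies under a site of all 8 lists inside the gene.

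Per kb of window, the junctional adhesion molecules split into F11r and Esam, with dense cover, and Jam2 and Jam3, with less. Among genes of like span Jam3 did not follow this split in every list. Its percentile was above that of Esam in the H3K27ac-rich (91.4 against 83.5), H4K8ac-rich (91.8 against 82.3) and H3K18ac-rich list (85.7 against 77.0). So it was in the H3K14ac-rich (90.2 against 88.7) and H2AK5ac-rich list (95.6 against 92.7). It was below in the H3K4me3-rich (48.5 against 95.5), H3K9ac-rich (62.8 against 92.2) and H3K23ac-rich list (66.7 against 93.5). F11r (gene ID 16456, chr1:171437561-171464593) encodes JAM-A, which binds its like across the contact. It had 81 peaks, with 3404 bp H4K8ac-rich, 2984 bp H3K9ac-rich, 2571 bp H3K4me3-rich, 2527 bp H3K18ac-rich, 2444 bp H3K23ac-rich, 2434 bp H3K14ac-rich, 1773 bp H3K27ac-rich and 968 bp H2AK5ac-rich. Its H4K8ac-rich cover of 110 bp per kb was the highest of the 9 genes in that list and lay at percentile 95.6 of all coding genes. The site over the start site (171437271-171438163) held 7 lists, without the H2AK5ac-rich one. All 8 lists met 3519 bp from the start site, at 171441080-171441919, where the widest H3K9ac-rich (756 bp), H3K27ac-rich (445 bp) and H2AK5ac-rich (296 bp) peaks of F11r lay.

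Esam (gene ID 69524, chr9:37528089-37538319) encodes endothelial cell-selective adhesion molecule, found on endothelium and platelets. In a window of 14231 bp it had 32 peaks, and their cover was concentrated at the lower-coordinate end. H3K4me3-rich peaks covered 2188 bp, H3K23ac-rich 1690 bp, H3K9ac-rich 1477 bp, H3K14ac-rich 1271 bp, H4K8ac-rich 1059 bp, H3K27ac-rich 951 bp, H3K18ac-rich 852 bp and H2AK5ac-rich 516 bp. The H3K4me3-rich cover of 154 bp per kb and the H3K23ac-rich cover of 119 bp per kb were the highest of the 9 genes in those lists. A site of all 8 lists (37527895-37528822) lay over that end, and a site of 7 lists (37529837-37531257) followed 1748 bp inside it, without the H2AK5ac-rich list. The window also reaches into Msantd2, which lies 1782 bp from the first site, and Vsig2. The strand of Esam was not used here, so neither gene was assigned the site.

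Jam2 (gene ID 67374, chr16:84774123-84826380) encodes JAM-B, a partner of JAM-C found on endothelium. It had 44 peaks, few for a window of 56258 bp. H3K27ac-rich peaks covered the most, 2063 bp (36.7 bp per kb, percentile 71.0 of all coding genes), followed by H3K14ac-rich with 1634 bp. H3K4me3-rich peaks covered 1185 bp, H4K8ac-rich 1126 bp, H3K18ac-rich 1113 bp, H2AK5ac-rich 950 bp and H3K23ac-rich 412 bp. The single H3K9ac-rich peak covered 204 bp, the minimum width of that list (percentile 45.1). At the lower-coordinate end a site of 7 lists (84774008-84775047) lacked the H3K9ac-rich list but held the widest H3K27ac-rich peak of all 9 genes, 710 bp. Inside the gene, 36149 bp from that end, another site of 7 lists (84810272-84810606) held the H3K9ac-rich peak and lacked the H3K14ac-rich list. The window reaches Atp5j at the upper-coordinate end, and no peak lay within 2 kb outside that end.

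Jam3 (gene ID 83964, chr9:27097384-27155421) encodes JAM-C. It had 96 peaks, and its H2AK5ac-rich cover was high beside that of the promoter marks. H3K14ac-rich peaks covered 4496 bp, H4K8ac-rich 3718 bp, H3K27ac-rich 2975 bp, H3K18ac-rich 2642 bp, H2AK5ac-rich 1920 bp, H3K23ac-rich 1539 bp, H3K4me3-rich 1149 bp and H3K9ac-rich 1035 bp. Per kb the H2AK5ac-rich cover was 30.9 bp (percentile 92.6 of all coding genes), against 18.5 bp for the H3K4me3-rich list (percentile 51.4). The widest H2AK5ac-rich peak of all 9 genes, 585 bp, lay at the upper-coordinate end in a site of 7 lists (27154846-27155631), without the H3K23ac-rich list. The site of all 8 lists was short, 383 bp at 27128683-27129065, and lay 26356 bp inside that end.

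Across the genes, joining the peaks gave 332 sites, of which 210 (63.3%) held a single list and 9 (2.71%) held all 8. The H3K14ac-rich list alone made up 80 of the single-list sites. Sites of all 8 lists lay at Cdh5 (3), Tjp1 (2), Esam, F11r, Jam3 and Ctnnb1 (1 each), and Jam2 and Ocln had none. Of the 9 sites, 6 lay inside genes more than 2 kb from either end and 3 within 2 kb of an end. Place was judged by the gene ends and not by start sites. The 6 therefore include the Tjp1 site that covers the RefSeq start site inside the annotated span. The median length of the 9 sites was 928 bp, against 138 bp for single-list sites, and a longer site can meet more lists by its length alone. Among sites that held a given list, the H3K4me3-rich ones lay inside genes in 58.1% of 43 sites, the H3K9ac-rich in 72.1% of 43 and the H3K27ac-rich in 85.1% of 87.

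**Figure D4:**
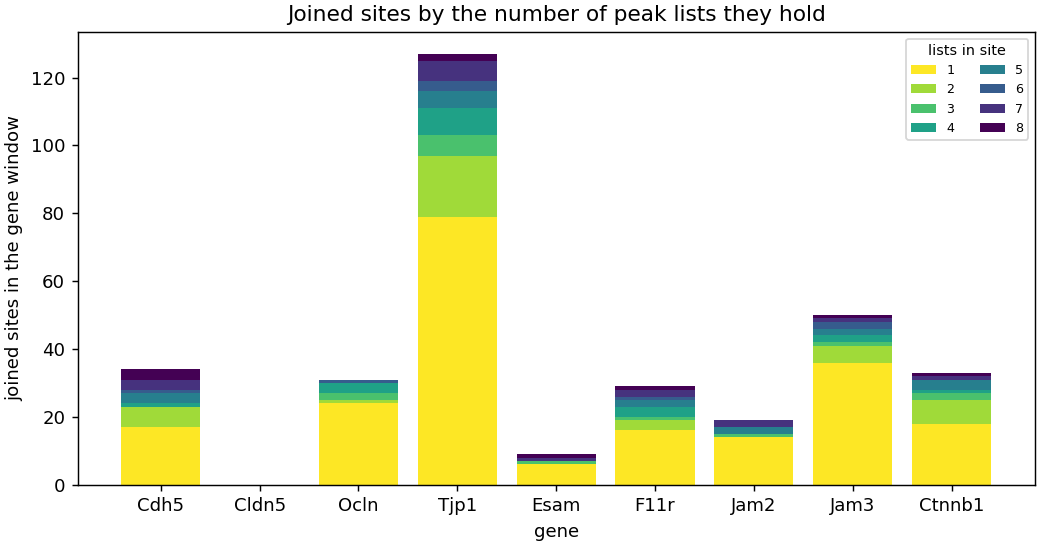
Number of joined sites in the window of each junction gene (bar height), split by how many of the 8 peak lists a site holds (colour). Tjp1 has 127 sites and 2 of all 8 lists, Cdh5 34 sites and 3 of all 8 lists, and Cldn5 none.

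How often peaks of different lists touched varied with the pair. Of the 92 H3K27ac-rich peaks at the junction genes 79.3% touched an H3K18ac-rich and 79.3% an H4K8ac-rich peak, against 72.4% and 67.0% of all H3K27ac-rich peaks. With the H3K4me3-rich list the shares were close, 30.4% at the junction genes and 30.5% of all. Some shares were a little lower at the junction genes: 60.9% of H3K27ac-rich peaks touched an H3K14ac-rich one, against 63.8% of all, and of the 168 H4K8ac-rich peaks 40.5% touched an H3K14ac-rich and 19.0% an H3K4me3-rich one, against 41.7% and 21.1%. H3K14ac-rich peaks showed larger gaps. Of their 169 peaks at the junction genes 39.6% touched an H4K8ac-rich peak and 21.3% an H3K4me3-rich one, against 12.9% and 6.38% of all H3K14ac-rich peaks. The share wider than the list's minimum was also higher, 34.3% at the junction genes against 19.1% of all in the H3K14ac-rich list, and 60.9% against 43.7% in the H3K4me3-rich list. All peaks include those outside genes, and the part of that in these gaps was not tested.

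Reads were placed where an identifier of the table lies at 1 place and at least 50% of its bases are in no other identifier. Such regions were found at 6 of the 9 genes, 78 in number and 11790 bp of unshared bases in all, 14.7% of the bases of the sites. None was found at F11r, Ocln or Cldn5, which therefore have no read values. Cldn5 had no listed region. Each list runs in order of chromosome name, and the first 180263 identifiers each hold regions of more than 1 list. F11r (chr1) and Ocln (chr13) come early in that order, so their identifiers also hold regions elsewhere and their reads could not be placed. Each of the 78 was a peak of the H3K14ac-rich list, so all libraries were compared within peaks of that list. Of the 78, 68 lay in sites of a single list and 5 in sites of 7 or 8 lists. In CPM (reads scaled to the library's total in the table) per kb of unshared bases, the 6 genes together had 17.4 for H3K27ac (521 reads, 95% Poisson interval 477 to 568), 16 for H4K8ac (331 reads, 296 to 369), 15.2 for H3K14ac (1800 reads, 1718 to 1885) and 13.2 for H3K18ac (240 reads, 211 to 272). H3K4me3 had 6.60 (115 reads), H3K9ac 3.54 (68 reads), H3K23ac 1.64 (93 reads) and H2AK5ac 0.0404 (2 reads, 0.242 to 7.22). IgG had 0 reads (interval 0 to 3.69), under the floor of 3 reads set here, which is 0.695 CPM per kb over these bases in that library. Intervals cover counting error only.

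Set against such regions pooled over coding genes, the 6 junction genes had 16 CPM per kb for H4K8ac against 2.05, 13.2 for H3K18ac against 2.87 and 17.4 for H3K27ac against 7.20. This pool leaves out almost all genes early in the order of chromosome names, as it does F11r and Ocln. H3K14ac had 15.2 against 13.3, both read in peaks of the list named for that library, as were 333222 of the 333223 regions of the table where reads could be placed, so the choice of regions bears on these values. H3K4me3 had 6.60 against 2.41, H3K9ac 3.54 against 0.527 and H3K23ac 1.64 against 0.347. H2AK5ac had 0.0404 (2 reads) against 0.299, and IgG was at 0 reads against 5.67 CPM per kb. The median of 3993 coding genes with at least 1 kb of unshared bases was 6.30 CPM per kb for H3K27ac, 1.46 for H3K18ac, 0.471 for H4K8ac, 0.103 for H3K4me3 and 0 for H3K9ac, H3K23ac, H2AK5ac and IgG. Single genes weighed on some of these pooled values: without Ctnnb1 H3K4me3 had 3.42, H3K9ac 1.23 and H3K23ac 0.974 CPM per kb, without Cdh5 H3K23ac had 1.03 and H2AK5ac 0, and without Tjp1 H3K9ac had 6.01, H3K23ac 2.76 and H2AK5ac 0.0751. Cdh5 had the highest value of the 6 genes in 5 libraries: 66.1 CPM per kb for H4K8ac (120 reads), 45.5 for H3K18ac (73 reads), 33.9 for H3K27ac (89 reads), 8.03 for H3K23ac (40 reads, against 6.97 at Ctnnb1) and 0.459 for H2AK5ac, whose 2 reads were the only ones at any of the 6 genes. One region of 138 bp at chr8:104124462-104124599 inside the gene held 61 of these H4K8ac reads, 55 of the H3K18ac reads and 39 of the H3K27ac reads. All 40 H3K23ac reads of Cdh5 lay in another region, 104108413-104108550.

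Ctnnb1 had the highest values for H3K4me3 and H3K9ac, with 31.9 CPM per kb (62 reads) and 22.0 (47 reads), against 2.61 and 2.37 (4 reads each) at Cdh5. A single region, chr9:120936795-120937028, held 46 of the H3K4me3 reads, all 47 of the H3K9ac reads and 39 of the 44 H3K23ac reads of Ctnnb1. At Tjp1, H3K14ac had 787 reads, H3K27ac 212, H4K8ac 94, H3K18ac 76 and H3K4me3 33 over 36 regions. Jam3 had 488 H3K14ac, 113 H3K27ac, 49 H4K8ac, 47 H3K18ac and 16 H3K4me3 reads over 18 regions. Jam2 had 116 H3K14ac, 33 H3K27ac, 16 H3K18ac and 14 H4K8ac reads, and 0 of H3K4me3, H3K9ac and H3K23ac, where 3 reads would be 2.03, 1.84 and 0.625 CPM. Esam had 1 region, with 22 H3K14ac and 10 H3K27ac reads and 0 in the other libraries. H3K14ac ranged from 12.4 CPM per kb at Jam2 to 16.9 at Ctnnb1 among the 6 genes.

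**Figure D5:**
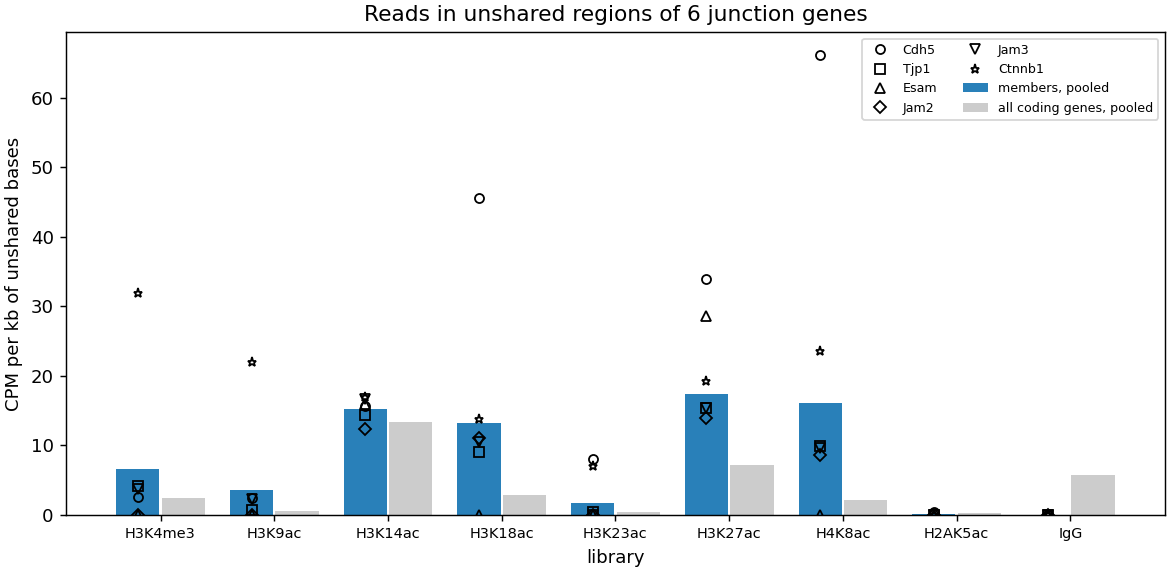
Reads in unshared regions, as CPM per kb of unshared bases, for each library (x axis): blue bars pool the 6 junction genes with such regions, grey bars pool all coding genes that have such regions, and open symbols are single junction genes. Cdh5 is highest for H4K8ac, H3K18ac, H3K27ac, H3K23ac and, with 2 reads, H2AK5ac, and Ctnnb1 for H3K4me3, H3K9ac and H3K14ac.

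Other genes of the same junctions, or grouped with them here, were set beside these. The adherens group includes Tek, Rap1a, Rap1b and Rasip1, while Cdh1 was counted with the gap junction and other genes. Tek and Pecam1 are also among the endothelial markers above, and Cdh1 and Epcam among the epithelial ones. Of the 13 other genes of the adherens group, 12 had peaks of all 8 lists, Plekha7 having 7. Vcl, which encodes the actin linker vinculin, and Tek, the angiopoietin receptor, had the most bases in H3K27ac-rich peaks (4824 and 3817 bp, or 44.5 and 27.3 bp per kb of window), and Cdh2, N-cadherin, had 8 lists with 992 bp. Of 18 other tight junction genes, 9 had all 8 lists. The scaffold genes Magi1 and Pard3 had the most bases in H3K27ac-rich peaks, 17414 and 8152 bp, but their spans are 608477 and 548906 bp and the cover was 28.4 and 14.7 bp per kb, and the claudin genes Cldn3 and Cldn1 had 2 and 3 lists, with 0 and 116 bp. Of 9 gap junction and other contact genes, 5 had all 8 lists. The share of all coding genes was 44.6%, not far from those of the tight junction and of the gap junction and other genes. Gene length was not matched between these groups. Pecam1, which encodes CD31, had 4474 bp of H3K27ac-rich peaks and Cd99l2 1781 bp, while Epcam, an epithelial adhesion molecule, had 3 lists and Cd99 none. The mean number of lists was 7.00 at the 9 junction genes described here, 7.92 at the other adherens, 6.22 at the other tight and 6.00 at the gap junction and other genes, against 5.68 over all coding genes.

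The genes with covered lengths most like those of Cdh5, by Euclidean distance over log2(covered bases + 100) in the 8 lists, were Lmnb1 (distance 0.410), Axl (0.461), Plcg1 (0.482), Cd9 (0.521) and Slc25a25 (0.521). Lmnb1 had 3308 bp of H3K27ac-rich and 2011 bp of H2AK5ac-rich peaks, against 3073 and 2403 bp at Cdh5. Nearest to the median of the 9 junction genes were Slc7a7 (0.442), Cyfip1 (0.459), Plxna1 (0.626), Prkcd (0.645) and Tns2 (0.659). Likeness here is over 8 lists of 1 library each.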

How the data were processed

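ACT-seq libraries of mouse lung endothelial cells, 1 for each of 8 marks and IgG, were used. The authors deposited 1 table of raw read counts for 578465 region identifiers in 9 libraries, made by featureCounts 2.0.6 per the file headers. The submitters' processing notes also name FastQC, MultiQC, Trim Galore, STAR, MACS2 and DESeq2, with the builds mm10 and GRCm38.p6. The sources used here do not give the settings of peak calling. A read over several identifiers was not counted, per the file headers, so places shared between lists lose reads.

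The identifiers hold 1309635 regions, because 8 numbered lists share their identifiers. Lists were separated by genome order and minimum peak width (0 identifiers broke the order). Order alone placed 0.292% of the regions under shared identifiers in another list. On simulated lists 99.95% of 30400 such regions returned to their list and 8 of 8 lists were named by their own library, but a density of few reads beside a dense list was off by up to 66.5%. The simulated libraries led their lists by more than H3K27ac (1.98 times) and H3K14ac (2.24 times) led IgG in theirs. No IgG library was simulated. The names of the H3K27ac-rich and H3K14ac-rich lists were therefore not tested by the simulation. Starts were read as counted from 0. Library densities per list came from non-negative least squares (SciPy 1.17.1, NumPy 2.4.6, Python 3.11.15). The H3K27ac library led its list least clearly, at 1.98 times the density of IgG.

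Genes and promoters came from RefSeq tables of GRCm38.p6. The gene table has no strand. Annotation of exons and UTRs was not used here. Windows were the gene span plus 2 kb. With 1 library per target no test was made. Depth ranged from 365999 (IgG) to 10044130 reads (H3K14ac). Percentiles and shares of genes of like span were chosen after the data were seen. The junction genes, the other gene lists and the alternatives were chosen with earlier results of these data known. Named were all 9 genes, for each group of other junction genes the 2 with most and the 2 with fewest lists (ties by H3K27ac-rich bases), and the 5 genes nearest to each of 2 profiles. Alternatives were other windows, wider peaks alone, overlap and joining rules, order alone, neighbouring genes left out and fully unshared identifiers.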

Additional observations from a re-analysis of the deposited data

How the results depend on the processing

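Cldn5 had no peak and Ocln no H3K9ac-rich peak under each of the 7 alternative windows, widths, overlaps and separations run. No window tried could change this. The nearest peak to Cldn5 lay 7361 bp away and the nearest H3K9ac-rich peak to Ocln 35097 bp away, beyond the widest flank of 5 kb. Settings that only remove peaks could not change it either. The 2 kb at both gene ends alone gave 18 H3K4me3-rich, 13 H3K9ac-rich, 29 H3K14ac-rich, 22 H3K18ac-rich, 19 H3K23ac-rich, 30 H4K8ac-rich, 14 H3K27ac-rich and 14 H2AK5ac-rich peaks, 4 genes with all 8 lists and 3 sites of all 8 lists, since most peaks lie inside the genes. Peaks wider than the minimum alone numbered 28 H3K4me3-rich, 21 H3K9ac-rich, 58 H3K14ac-rich, 24 H3K23ac-rich, 86 H4K8ac-rich and 20 H2AK5ac-rich. They covered 15985 bp in the H3K14ac-rich list (31303 with all peaks), 11161 in the H3K23ac-rich (22697) and 5169 in the H2AK5ac-rich (10071). The H3K27ac-rich list then covered most, 20732 bp (21812), and the H4K8ac-rich list 20706 bp (29041). Wider peaks alone left 4 sites of all 8 lists and 5 genes with all 8 lists. Esam lost the H2AK5ac-rich list and Jam2 the H3K9ac-rich and H3K23ac-rich lists. Joining peaks up to 200 bases apart gave 11 sites of all 8 lists. Without the H3K14ac-rich list, an alternative chosen after seeing the data, 7 genes and 10 sites held all 7 others. Identifiers with no shared base gave 1602 H3K14ac reads, against 1800. No paired analysis was possible because each target has 1 library. With 1 library per target, and IgG the shallowest, neither the spread between animals nor a background below 3 IgG reads can be seen.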
